A study of Homo sapiens with 8 samples.

Results

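The septin genes SEPT2, SEPT7, SEPT8, SEPT9, SEPT10 and SEPT11 were examined as RNAs bound by RBFOX2 and by TIA1 in HEK293T cells, a transformed human embryonic kidney line. A peak was counted for a septin gene when it shared at least 1 base with the gene's span on the gene's own strand. This gave 19 peaks of 7442 in the series, 18 of the 4227 RBFOX2 peaks and 1 of the 3215 TIA1 peaks. RBFOX2 peaks lay in SEPT11 (12) and SEPT2 (6), the TIA1 peak lay in SEPT9, and SEPT7, SEPT8 and SEPT10 had no peak in either list. The genes were picked with these peaks in view, so the counts, folds and p-values that follow are a description and carry no test.

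The peaks come from eCLIP, in which RNA is fixed to protein by ultraviolet light, recovered with an antibody and sequenced. Each protein had 2 libraries of immunoprecipitated RNA (clip) and 2 libraries of input RNA, which skipped the immunoprecipitation. All 8 libraries were made from cells given 600 mJ of ultraviolet light, and every clip library used an antibody against the HA tag. The sources used here do not say how tagged RBFOX2 and TIA1 were expressed, one protocol text names beads bound to TIA1 for the libraries of both proteins, and the replicates are called biological in one label and technical in another. The authors joined both replicates into 1 peak list per protein. Neither list gives read counts or separate replicate values, so the depth is unknown and the spread between replicates cannot be given. Each fold per peak is the authors' own log2 value, read here as clip over input, and each −log10 p is theirs too. No listed log2 fold or −log10 p is below 3.0, so weaker sites are not seen and a gene without a peak cannot be read as unbound. A gene's level in the input RNA was not analysed either.

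Septins are GTP-binding proteins that assemble into rods and filaments at the cell cortex, where they act in cytokinesis, in membrane scaffolding and in organising actin and microtubules. The rods combine subunits of different groups: SEPT2 and SEPT7 stand for a group each, SEPT8, SEPT10 and SEPT11 belong to the SEPT6 group, whose members can replace one another, and SEPT9 is found in the longer rods. RBFOX2 is a splicing regulator that recognises the RNA element GCAUG and also binds outside introns. TIA1 binds U-rich RNA and acts in splicing and in translational repression.

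The annotation at hand was for GRCh38 and the peaks are in hg19, so no peak was assigned to an exon, intron or untranslated region (UTR), and the sequence under the peaks was not analysed. To show which septin genes hold the RBFOX2 element in a 3′ UTR, the longest 3′ UTR of each gene in GENCODE 29 (GRCh38) was searched. The search was for GCATG, the DNA form of GCAUG, on the transcript strand. Other parts of the messages and other transcripts were not searched. The 6 matches in the genes with RBFOX2 peaks are printed here with 10 bases on each side. Capitals mark GCATG, and the numbers give its first base counted from the start of the 3′ UTR.
SEPT2, base 68: cattccagatGCATGatccagctgt
SEPT2, base 292: ccaagaatcgGCATGtatacttaat
SEPT11, base 541: ttttacccttGCATGacattttcat
SEPT11, base 1823: atagtagctgGCATGttgattcaaa
SEPT11, base 2322: tttcgcctttGCATGtaagtacggt
SEPT11, base 3897: tatgtaagctGCATGttagacattt

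The SEPT2 3′ UTR of 2090 bases held 2 GCATG, and the SEPT11 3′ UTR of 4102 bases held 4. The longer form TGCATG, which contains GCATG, occurred 3 times in SEPT11 and 1 time each in SEPT2, SEPT7 and SEPT9. SEPT8 and SEPT10 had 0, and 34.9% of the 18201 3′ UTRs searched had at least 1. That share is over UTRs of all lengths, and TGCATG was not compared with UTRs of like length. Long UTRs hold GCATG often. Of the 2441 human 3′ UTRs within 0.8 to 1.2 times the SEPT2 length, 83.0% had at least 1 GCATG. Of the 1649 near the SEPT11 length, 96.9% did. As many or more were present in 56.0% of the UTRs near the length of SEPT2 and in 51.1% of those near the length of SEPT11. In neither gene with RBFOX2 peaks was the 3′ UTR thus richer in GCATG than most UTRs of its length.

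The genes without RBFOX2 peaks also held the element. SEPT7, a subunit that other septins do not replace, had 5 GCATG in a 3′ UTR of 2812 bases, the most of the 6 genes, and 13.6% of UTRs of like length had as many or more. SEPT8 (2820 bases), SEPT9 (1938 bases) and SEPT10 (1327 bases) had 1 each. As many or more were present in 92.3%, 79.6% and 68.7% of UTRs of like length, in that order. The reverse complement CATGC, which is not the RBFOX2 element, occurred 1 to 4 times per gene, 4 times in SEPT8 and 3 times in SEPT7. At least 1 CATGC was present in 60.8% of all 3′ UTRs searched, and at least 1 GCATG in 60.7%. A match is only a run of letters, and no match was compared with the peak positions, so whether any lies under a peak is unknown.

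**Figure D1:**
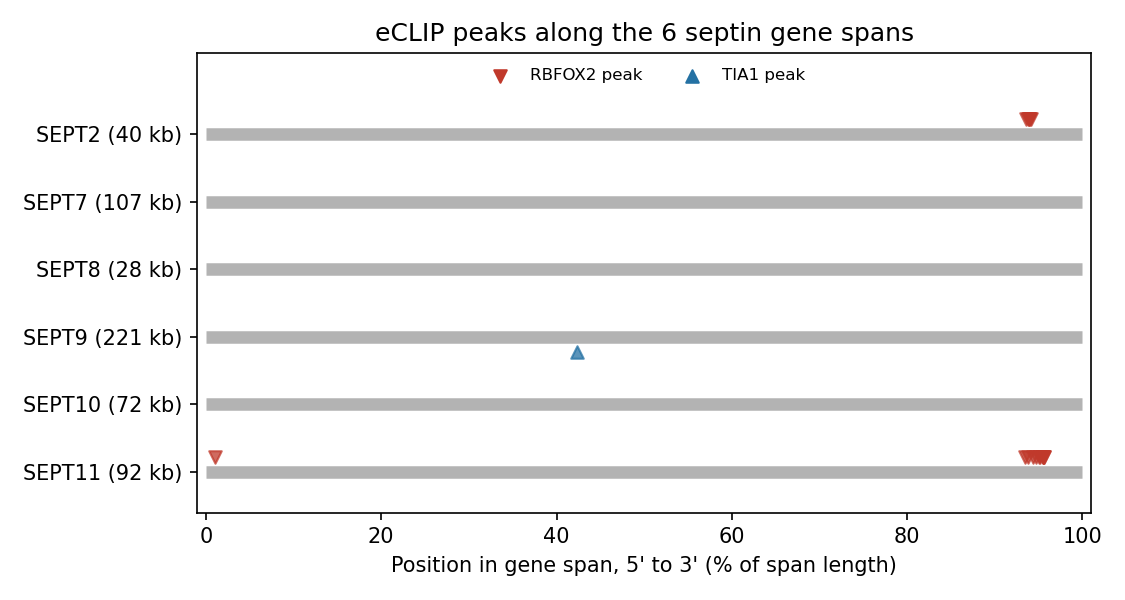
Position of each eCLIP peak (x axis, percent of the gene span from 5′ to 3′ end) in the 6 septin genes (rows, with span length in kb), with RBFOX2 peaks as red downward and TIA1 peaks as blue upward triangles. RBFOX2 peaks of SEPT2 and 11 of the 12 in SEPT11 crowd at 93.5 to 95.6% of the span, 1 SEPT11 peak lies at 1.06%, the TIA1 peak of SEPT9 lies at 42.3%, and 3 genes have none.

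SEPT11, which encodes a filament subunit of the SEPT6 group, had 12 of the 19 septin peaks. Its span runs from 77870 to 77962 kb on the plus strand of chromosome 4. One RBFOX2 peak lay 958 bases from the 5′ end of the span, at 77870959 to 77870993, with a log2 fold of 3.40 and a −log10 p of 4.58. The other 11 lay 84959 bases further on, packed into 2009 bases from 77955953 to 77957961. The map of peaks along the spans shows these positions at both ends of the gene, with no RBFOX2 peak between them.

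The distal SEPT11 cluster was a row of separate sites that ended in a block of abutting peaks. The first peak (77955953 to 77956031) had a log2 fold of 3.48 and a −log10 p of 4.03. After a gap of 198 bases, the second peak (77956230 to 77956306) had the highest −log10 p in the gene, 10.3, and a log2 fold of 4.19. The 26-base peak at 77956854 to 77956879 had values of 3.0 and 3.01, close to the lower limit of the list on both scales. It was the lowest of the cluster on both scales. Next came a peak from 77957106 to 77957182, whose log2 fold was 3.89 and −log10 p 4.78. A pair 38 bases apart followed, and its members ranked in opposite order on the 2 scales. The first of the pair (77957445 to 77957523) combined a log2 fold of 3.12 with a −log10 p of 6.99, and the second (77957562 to 77957592) combined 4.63 with 3.27.

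The last 5 SEPT11 peaks abutted one another over 119 bases, from 77957843 to 77957961. From 5′ to 3′ their log2 folds were 4.37, 4.89, 4.21, 3.81 and 3.71. The fold was therefore highest in the second peak and lower in each peak after it. Their −log10 p were 3.66, 5.38, 7.76, 9.50 and 4.48, highest in the fourth peak, so the peak with the highest fold was not the one with the highest −log10 p. The log2 fold of 4.89, at 77957865 to 77957889, corresponds to 29.7-fold and was the highest among the septin genes. It ranked 88 of 4227 by fold in the RBFOX2 list and 2673 by −log10 p.

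SEPT2, a filament subunit that acts in cytokinesis, had a single compact RBFOX2 site. Its span runs from 242254 to 242294 kb on the plus strand of chromosome 2, and all 6 peaks lay within 263 bases, from 242291413 to 242291675, ending 2325 bases before the end of the span. The first peak, at 242291413 to 242291454, was listed at a log2 fold of 3.29 and stood 43 bases before the others. The next 5 abutted one another, with log2 folds of 3.53, 4.59, 4.37, 4.41 and 4.06 from 5′ to 3′. The fold was thus lowest in the first peak and above 4 in the last 4.

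The −log10 p of the 6 SEPT2 peaks ran 4.39, 3.35, 8.26, 10.9, 11.6 and 7.75 in the same order. The peak at 242291597 to 242291624, with 11.6, had the highest −log10 p among the septin genes and ranked 973 of 4227 in the list. The peak of highest fold in SEPT2 spanned 24 bases, 242291541 to 242291564. Its log2 fold of 4.59 is 24.0-fold and ranked 208 by fold. The highest −log10 p is exactly 400 in the RBFOX2 list and in the TIA1 list, so it may be a set ceiling. It is far above any septin peak.

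**Figure D2:**
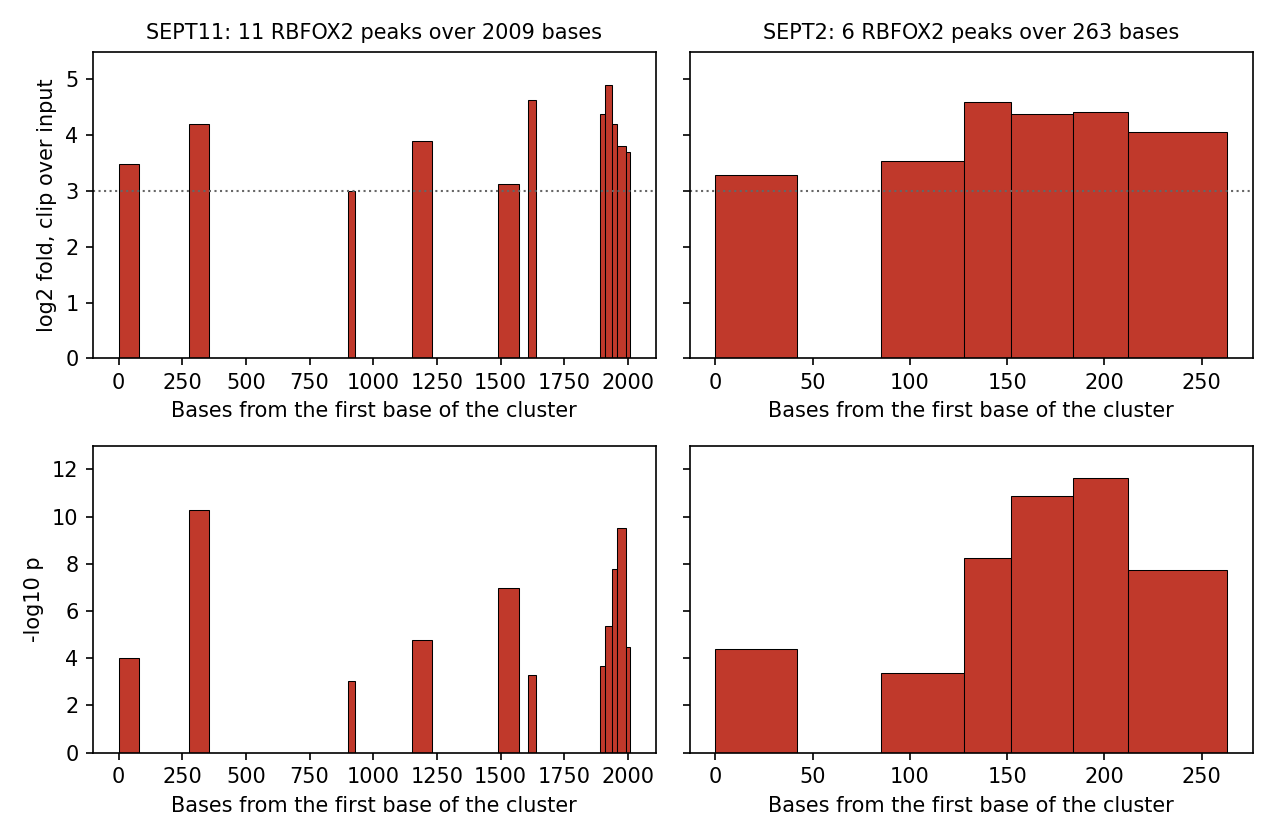
Deposited log2 fold of clip over input (top) and −log10 p (bottom) along the distal SEPT11 cluster (left) and the SEPT2 site (right). Each bar is 1 RBFOX2 peak, drawn at its true width against bases from the first base of the cluster, and the dotted line marks a log2 fold of 3. The SEPT11 peaks are spread over 2009 bases and end in 5 abutting peaks, while the SEPT2 peaks fill most of 263 bases.

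Both genes had their RBFOX2 clusters near the 3′ end of the span, but the arrangement differed. SEPT2 peaks covered 220 of the 263 bases of the site, whereas the 11 distal peaks of SEPT11 were spread over 2009 bases. Peaks joined across gaps of at most 50 bases formed 1 site in SEPT2 and 7 in SEPT11, of which 5 in SEPT11 were single peaks. Median log2 fold was 4.22 over the 6 SEPT2 peaks (range 3.29 to 4.59) and 3.85 over the 12 SEPT11 peaks (3.0 to 4.89). The ranges overlap, and the SEPT2 range lies wholly inside that of SEPT11. Median −log10 p was 8.01 in SEPT2 and 4.68 in SEPT11.

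Against the RBFOX2 list, the septin peaks were narrow and of high fold, and those of SEPT11 were of modest −log10 p. Log2 folds of 4 or more were listed for 9 of the 18 septin peaks, 4 in SEPT2 and 5 in SEPT11, beside 19.3% of the whole list. Of these 9, 7 abutted a neighbour and are not separate sites. The share was 30.6% in other RBFOX2 clusters of at least 6 peaks and 36.9% in other joined sites of at least 5. Their median log2 fold was 3.97, beside 3.48 over all RBFOX2 peaks. A −log10 p of 5 or more was listed for 9 of 18, 4 of 6 in SEPT2 and 5 of 12 in SEPT11, beside 68.4% of the list. The median −log10 p was 5.08 beside 6.77 in the list, but the genes differed, with 8.01 in SEPT2 and 4.68 in SEPT11. The median width of the 18 septin peaks was 33.5 bases, from 15 to 79, beside 70 in the list. The genes were chosen on this list, so these shares describe the choice and are no evidence that septin RNAs stand apart.

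Width, fold and abutment go together in the list at large. Among the 4209 other RBFOX2 peaks, the 1826 that abutted a neighbour had a median log2 fold of 3.60 and a median width of 46 bases, and the 2383 that did not had 3.41 and 85 bases. Of the septin peaks 10 of 18 abutted a neighbour, beside 43.4% of the list. Those 10 had a median log2 fold of 4.29 and the remaining 8 had 3.44. In other RBFOX2 clusters of at least 6 peaks, the 988 peaks had a median log2 fold of 3.70, a median width of 39 bases and a median −log10 p of 11.5. The −log10 p of the septin clusters was thus below the median of clusters of such size in all 11 distal SEPT11 peaks and in 5 of the 6 SEPT2 peaks.

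**Figure D3:**
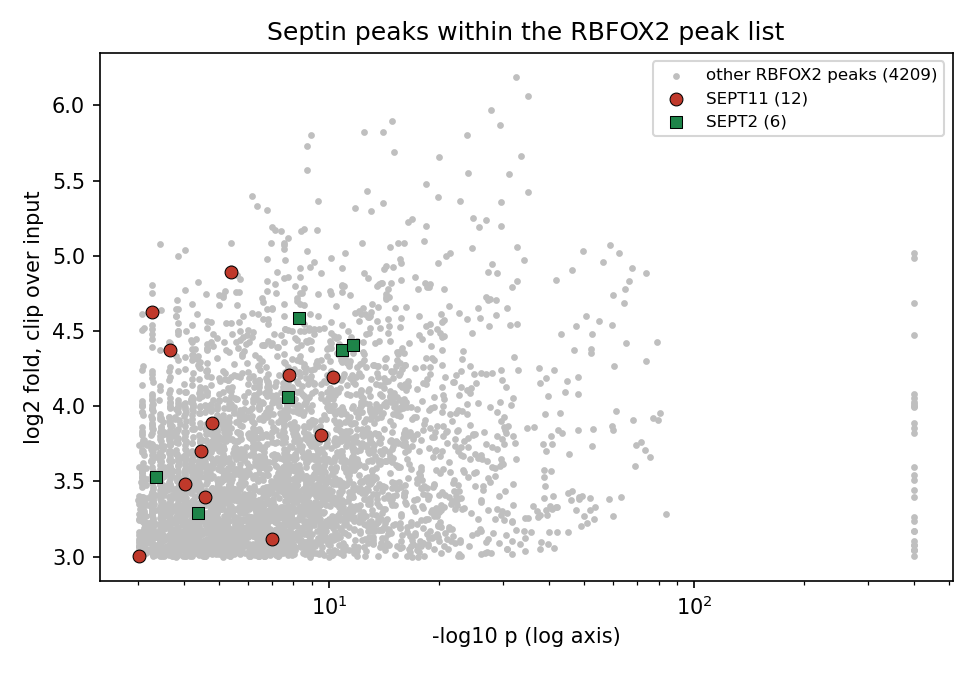
Deposited log2 fold (y axis) against −log10 p (x axis, log scale) for every RBFOX2 peak, with the 12 SEPT11 peaks as red circles, the 6 SEPT2 peaks as green squares and the other 4209 peaks in grey. The septin peaks reach a log2 fold of 4.89 but stay at a −log10 p of 11.6 or less, in a list whose highest listed value is 400.

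Clusters as large as that of SEPT11 were few. With peaks joined across gaps of at most 1 kb, the RBFOX2 list formed 2218 clusters, of which 1418 were single peaks. The SEPT11 cluster held 11 peaks, and 24 clusters, SEPT11 included, held as many or more, up to 26 peaks. The SEPT2 cluster held 6, as did 38 clusters in all, and 116 held 6 or more. The 12 SEPT11 peaks were also 12 of the 13 RBFOX2 peaks on the plus strand between 77 and 78 Mb of chromosome 4, where another 14 lay on the minus strand.

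**Figure D4:**
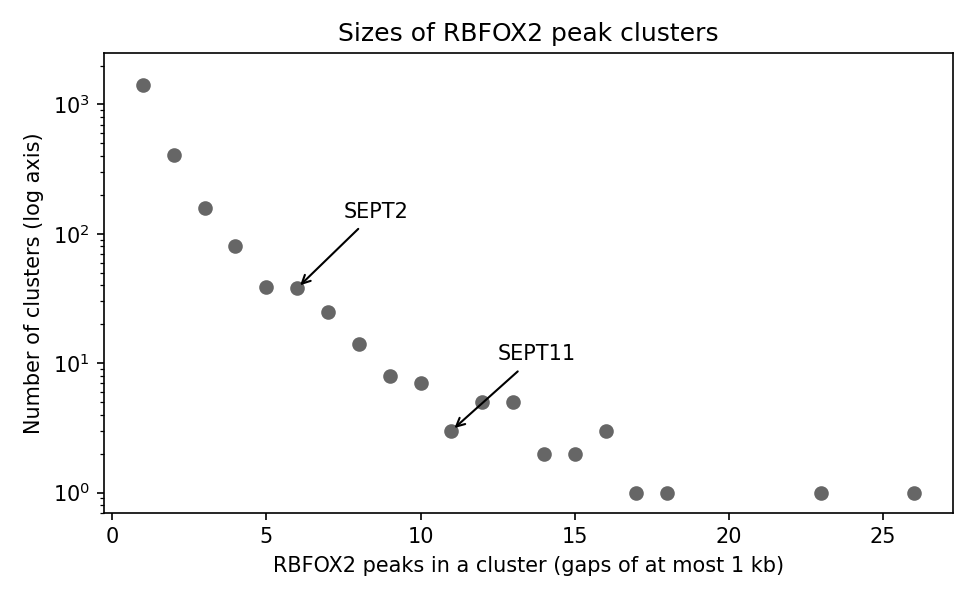
Number of RBFOX2 clusters (y axis, log scale) by the number of peaks they hold (x axis), with gaps of at most 1 kb between neighbouring peaks. Arrows mark the sizes of the SEPT2 cluster (6 peaks) and the distal SEPT11 cluster (11 peaks), which has few others of its size or above.

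TIA1 was not listed on the RNAs that carried RBFOX2 clusters. None of the 18 septin RBFOX2 peaks overlapped a TIA1 peak (0 of 18), beside 21.7% of the RBFOX2 list. These peaks form only 3 clusters, in SEPT2 and SEPT11, so they are not 18 separate observations. The nearest TIA1 peak on the strand was 1740 kb away from the SEPT11 peaks and 3755 kb away from those of SEPT2. No listed TIA1 site on the strand of either gene was thus near its cluster. Between 77 and 78 Mb of chromosome 4, the fixed window that holds the SEPT11 span, the TIA1 list had 1 peak, and it lay on the minus strand.

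SEPT9, which links septin filaments to actin and microtubules, was the only septin gene with a TIA1 peak. The peak ran from 75369440 to 75369592 on the plus strand of chromosome 17, 42.3% of the way along a span of 221 kb (75276 to 75497 kb). It was 153 bases wide, with a log2 fold of 3.05 (8.25-fold) and a −log10 p of 6.04. By fold it ranked 2975 of 3215, close to the lower limit of the list, and by −log10 p it ranked 1958. Its −log10 p was at least 5 (1 of 1), as in 71.4% of the list, and it abutted no neighbour (0 of 1), beside 35.3% of the list. No log2 fold of 4 was reached (0 of 1), beside 9.21% of the TIA1 list. It overlapped no RBFOX2 peak (0 of 1), beside 24% of the list, and the nearest RBFOX2 peak on the strand was 158 kb away.

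Of the 6 genes, the one with the TIA1 peak had the fewest runs of T in its longest 3′ UTR. TTTTT, counted with overlaps on the transcript strand, occurred 2 times in SEPT9, and 89.7% of 3′ UTRs of like length had as many or more. SEPT11 had 60, a number reached by 7.76% of UTRs of its length, and SEPT7 had 39, reached by 10.2%. SEPT2 had 19, SEPT8 12 and SEPT10 11. The SEPT9 peak lay 127408 bases before the end of the span, so these 3′ UTR counts say nothing of the sequence under it.

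SEPT7, SEPT8 and SEPT10 had no peak in either list. SEPT7 (chromosome 7, 35840 to 35947 kb, plus strand) had, as given above, the most GCATG, and the nearest listed peak on its strand was 2014 kb beyond the span, in the RBFOX2 list. SEPT8 (chromosome 5, 132086 to 132114 kb, minus strand) and SEPT10 (chromosome 2, 110300 to 110372 kb, minus strand) belong to the same group as SEPT11. For SEPT8 the nearest peak was a TIA1 peak 54.8 kb outside the span, and for SEPT10 a TIA1 peak 2270 kb outside it. The SEPT6 group thus held both the septin gene with most peaks and a pair of genes with no peak. RefSeq (GRCh38.p14) names 15 pseudogenes of SEPT7, 5 of them transcribed, 1 each of SEPT2 and SEPT10, and none of SEPT8, SEPT9 or SEPT11 (0 each). The sources used here do not say how reads that map to several such copies were treated, and its part in the absence of SEPT7 peaks was not tested.

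The span limits decided little. The septin peak nearest to a limit was the proximal SEPT11 peak, 0.958 kb inside. The nearest peak outside any span on the gene strand was the TIA1 peak beside SEPT8, with a log2 fold of 3.09 and a −log10 p of 6.94, and next came an RBFOX2 peak 64.7 kb before SEPT9, with 3.62 and 7.76. On the opposite strand the spans held 1 RBFOX2 peak and 0 TIA1 peaks. That RBFOX2 peak lay 0.539 kb inside the SEPT2 span, at 242254540 to 242254609 on the minus strand, with a log2 fold of 3.0 and a −log10 p of 3.45.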

How the data were processed

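The deposited peak lists give, per row, a chromosome, start, end, 2 values and a strand, with no header. The first value was taken as the authors' −log10 of a p-value and the second as the authors' log2 fold, from their ranges. Per the submitters' processing notes, STAR 2.4.0i, SAMtools 1.6, cutadapt 1.14 and UMI-tools 1.0.0 were used with hg19, in roles not stated. No source used here names the peak caller. Positions are 1-based. Member genes, gene spans (given in whole kb) and lists were chosen with earlier results of these data known. All 6 genes are described, and per gene the peaks of highest log2 fold and −log10 p, every peak of genes with 3 or fewer and each joined site of 3 or more are named. A cluster joins peaks across gaps of at most 1 kb. Further septin genes and their partners were not analysed here, for want of an hg19 annotation. The 3′ UTR search took, per gene, the basic GENCODE 29 transcript with the longest 3′ UTR (18201 genes, at least 100 bases), and RefSeq GRCh38.p14 gave pseudogene names, with all 6 genes matched. Counting was tested on simulated peaks. Analyses ran in Python 3.11.15 with matplotlib 3.10.9, numpy 2.4.6, pandas 2.3.3 and scipy 1.17.1.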

Additional observations from a re-analysis of the deposited data

How the results depend on the processing

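A log2 fold of at least 4 left 9 of the 18 RBFOX2 peaks and 0 TIA1 peaks, and a −log10 p of at least 5 left 9 RBFOX2 peaks. SEPT11 then kept 5 of 12 under either limit, though not the same 5, and SEPT2 kept the same 4 of 6. On the opposite strand the same spans held 1 RBFOX2 and 0 TIA1 peaks. Widening the spans by 1 kb changed no count, and the 8 joined RBFOX2 sites became 10 with only abutting peaks joined and 7 with peaks within 200 bases joined. No paired analysis was possible because the deposited lists merge the replicates of a protein, which also means that none could be left out.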
